A study of Pyrus pyrifolia with 6 samples.

Results

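The genes that make, store, move and break down malate, citrate and the other organic acids of central metabolism were compared between watercore and healthy pear pulp. They were taken by product name: protein-coding genes whose name holds malate, malic enzyme, citrate, aconitate, a phosphoenolpyruvate carboxylase or carboxykinase, succinate dehydrogenase, fumarate hydratase, 2-oxoglutarate dehydrogenase or tonoplast dicarboxylate. This gave 147 of the 38969 genes in the table. The names also take in genes of other pathways, namely the isopropylmalate enzymes of leucine synthesis, and these are described apart.

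RNA was sequenced from watercore pulp (3 libraries) and from healthy pulp (3 libraries) of fruit of Pyrus pyrifolia, the sand pear, picked at day 120 by the labels. Watercore is a disorder of ripening in which the flesh turns glassy and water-soaked. It arose in the orchard and was not induced, so both groups are fruit sorted by symptom after picking, with no treatment given to either. The labels name the cultivar Qiurong and give the organ as fruit skin tissue while their treatment text speaks of pulp, whereas the study's methods name the cultivar Akibae, dissected pulp and a somewhat later harvest day, counted from flowering. Whether a library holds 1 fruit or a pool is not given.

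Malate is the main acid of most pears and is held in the vacuole, where it sets much of the sourness of the fruit. In the cytosol it is built from phosphoenolpyruvate: phosphoenolpyruvate carboxylase (PEPC) fixes carbon dioxide to give oxaloacetate, and malate dehydrogenase reduces this to malate. The acid crosses the vacuolar membrane through the tonoplast dicarboxylate transporter (TDT) and through channels of the aluminum-activated malate transporter (ALMT) family, driven by the proton pumps of that membrane. When fruit draw on their acids, malic enzyme turns malate into pyruvate and PEP carboxykinase turns oxaloacetate back into phosphoenolpyruvate, while the citric acid cycle of the mitochondrion burns both malate and citrate. Aconitase interconverts citrate and isocitrate, and isocitrate dehydrogenase takes isocitrate on to 2-oxoglutarate.

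The libraries held between 14431337 and 15290688 counts in watercore pulp and between 14382020 and 14871188 in healthy pulp. Levels are given as FPKM, counts per kilobase of gene length scaled for the size of the library, as deposited. Fold changes are log2 values of watercore over healthy pulp from the quasi-likelihood test of edgeR on the counts, with the standard error (SE) and the Benjamini-Hochberg adjusted p over 21200 genes tested. A gene was called where its log2 fold change was at least 1 in size and its adjusted p was under 0.05. The samples are bulk tissue, in which fewer cells of a type and less RNA per cell cannot be told apart. Sorbitol dehydrogenase genes, which fruit flesh uses to draw on its main transported sugar alcohol, summed to between 1907 and 2041 FPKM in watercore pulp and between 2817 and 2888 FPKM in healthy pulp over 14 genes, although 4 of the 12 tested were called higher and 1 lower, with a median log2 fold change of 0.71. Markers of epidermis and cuticle were nearly absent, with 16 of 23 genes at 0 in every library, among sums of 0.818 to 1.08 FPKM in watercore pulp and 0.331 to 0.523 FPKM in healthy pulp. Seed storage and oil body genes summed to between 1170 and 1296 FPKM in watercore pulp and between 132.5 and 148.2 FPKM in healthy pulp over 26 genes, of which 5 of the 10 tested were called higher and 10, vicilins, oleosins and a legumin among them, were at 0 in every library. Chlorophyll a-b binding and Rubisco small subunit genes summed to between 1176 and 1308 FPKM in watercore pulp and between 1114 and 1143 FPKM in healthy pulp over 32 genes, 5 of them at 0 in every library, although 2 of the 13 tested were called higher and 4 lower, with a median log2 fold change of -0.10. The part of these lists in the results that follow was not tested.

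In all, 18 organic acid genes were called, 12 higher and 6 lower in watercore pulp. The gene with the largest gain in FPKM was a tonoplast dicarboxylate transporter, which was 5.40-fold higher. Genes of NADP-dependent malic enzyme (3) and an aconitase were also higher, while a PEPC kinase stood at 28.9% of its healthy level. Of the tested malate dehydrogenase genes outside the NADP form, 6 of 7 were lower by adjusted p alone, each by less than 2-fold. The share over all genes tested was 30.4%. Without a gene of doubtful annotation, 5 of 6 were lower. Citrate synthase and 2-oxoglutarate dehydrogenase had 0 genes called.

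Of the 147 genes, 103 had enough counts to be tested. The other 44 held at most 46 counts each over the 6 libraries, and 23 of them had 0. The 12 genes called higher are 11.7% of those tested, beside 17.6% of all genes tested, and the 6 called lower are 5.83%, beside 7.54%. By adjusted p alone, 23 were higher (22.3%, beside 32.3% of all genes) and 36 were lower (35.0%, beside 30.4%). The libraries of the groups did not overlap for 63 of the 103, with watercore above in 24 and below in 39, beside 69.2% of all genes. DESeq2 also called 12 higher and 6 lower, beside 16.2% and 6.04% of all genes it gave an adjusted p. The median log2 fold change was -0.10 over the 103 genes and 0.00 over all genes tested. All 147 genes together summed to between 6193 and 6400 FPKM in watercore pulp and between 6427 and 6488 FPKM in healthy pulp. The FPKM of all 38969 genes summed to between 646300 and 664200 in watercore pulp and between 692000 and 706400 in healthy pulp. Watercore sums over all genes were thus lower too, at a ratio of 0.933, beside 0.981 for the 147. The calls are thus no more frequent than over all genes. On log2(FPKM + 1) with limma 7 of the 18 calls were lost, those of LOC103929606, LOC103935560, LOC103937854, LOC103938371, LOC103950687, LOC103951102 and LOC103951716. Their mean FPKM over the 6 libraries ran from 0.521 (LOC103938371) to 11.3 (LOC103951102). Scarce genes such as LOC103965072 (0.742 FPKM) and LOC103958099 (0.628 FPKM) kept their calls. Calls were fewer over all genes too, at 2313 higher and 824 lower of 30138 fitted with limma. The main test had called 3730 higher and 1599 lower of 21200.

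**Figure D1:**
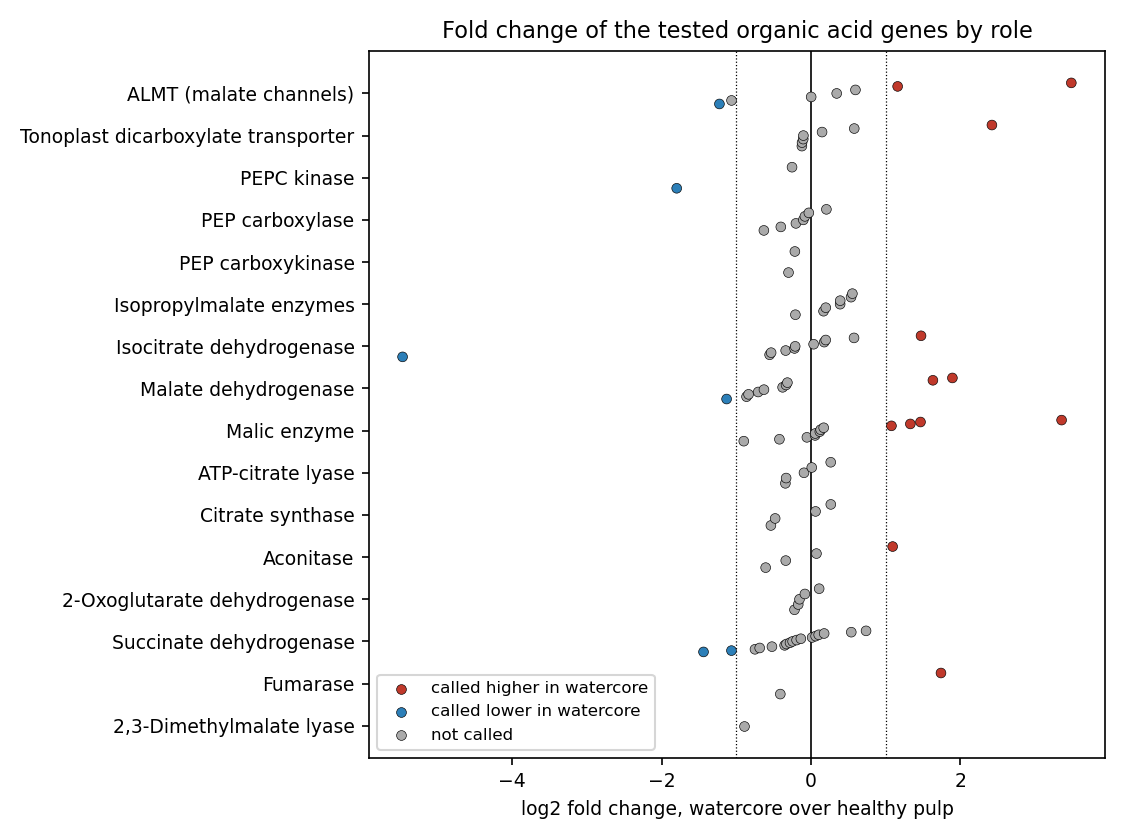
Log2 fold change of watercore over healthy pulp for the 103 tested organic acid genes, 1 point per gene, with the genes grouped by role on the vertical axis and called genes marked. The tonoplast transporter at 2.42 and the malic enzyme gene at 3.35 stand far right of their families, and the PEPC kinase at -1.80 stands left.

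**Figure D2:**
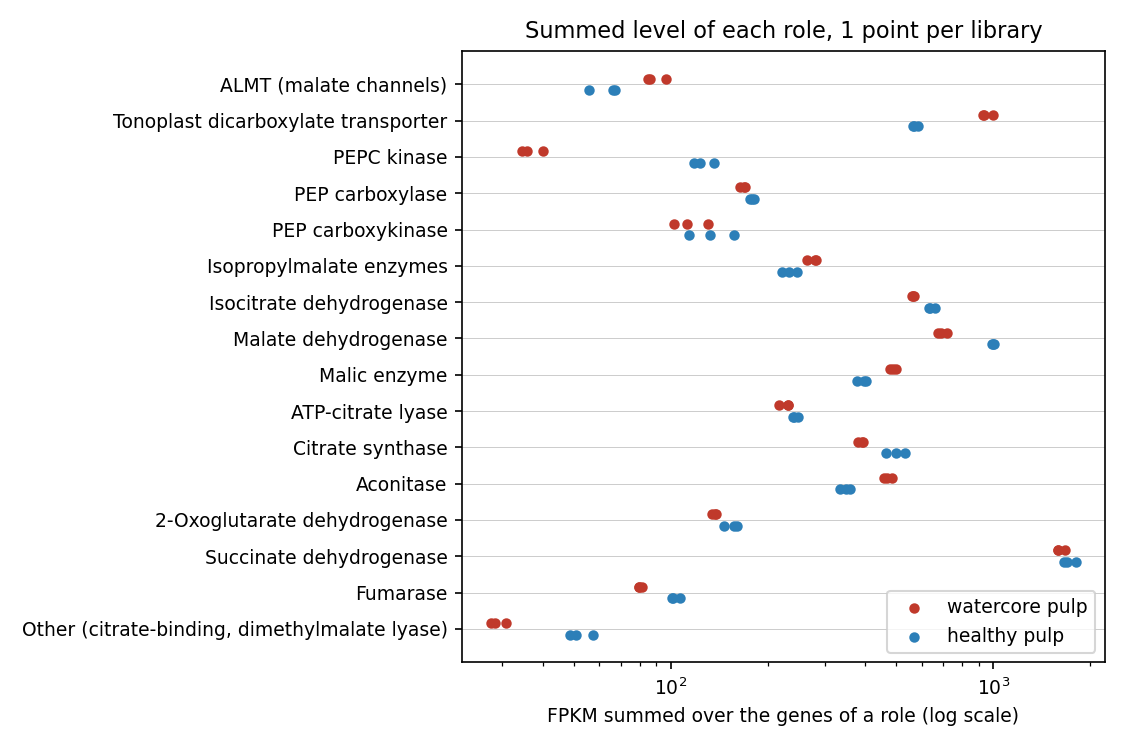
FPKM summed over the genes of each role on a log axis, 1 point per library and 1 row per role, watercore and healthy libraries in separate colours. The TDT sums lie between 926.0 and 997.8 in watercore pulp and between 564.7 and 582.7 in healthy pulp, while the malate dehydrogenase sums lie between 671.8 and 719.9 in watercore pulp and between 990.9 and 1007 in healthy pulp.

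The tonoplast dicarboxylate transporter is the carrier that takes malate across the vacuolar membrane, and all 7 of its genes were tested. LOC103943766 had 449, 466 and 448 FPKM in watercore pulp, against 97.2, 73.0 and 81.8 FPKM in healthy pulp. Every watercore library stood far above every healthy one, and the spread within a group was small beside the gap. Its means were 454 ± 9.98 FPKM in watercore pulp and 84.0 ± 12.2 FPKM in healthy pulp (SD, n = 3 each), and its log2 fold change was 2.42 (SE 0.10, adjusted p = 3.5e-07). The gene lies on scaffold NW_008988039.1 between 390507 and 394405, and by mean FPKM it is number 285 of the 38969 genes.

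The other 6 TDT genes were not called, and none of them had an adjusted p under 0.05. LOC103942769, the most abundant of them, had 259, 283 and 239 FPKM in watercore pulp, against 219, 242 and 239 FPKM in healthy pulp, and its groups overlapped (log2 fold change 0.15, SE 0.07, adjusted p = 0.105). LOC103927666 had 128, 137 and 133 FPKM in watercore pulp, against 138, 139.9 and 147 FPKM in healthy pulp (log2 fold change -0.10, SE 0.05, adjusted p = 0.117). The remaining 4 had log2 fold changes between -0.12 and 0.58. Summed over the family, TDT transcripts were at 933, 998 and 926 FPKM in watercore pulp and at 566, 565 and 583 FPKM in healthy pulp. Without LOC103943766 the sums were 485, 532 and 478 FPKM in watercore pulp and 468, 492 and 501 FPKM in healthy pulp, and they overlapped. This one gene thus carried the family's difference, with 48.1, 46.7 and 48.4% of its FPKM in watercore pulp and 17.2, 12.9 and 14.0% in healthy pulp. Some TDT genes are tandem neighbours, LOC103942769 beside LOC108866937 at 6387 bases and LOC103927666 beside LOC103927667 at 3448 bases, and how reads were split between such similar copies is not given. These neighbours were picked after their values were seen.

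**Figure D3:**
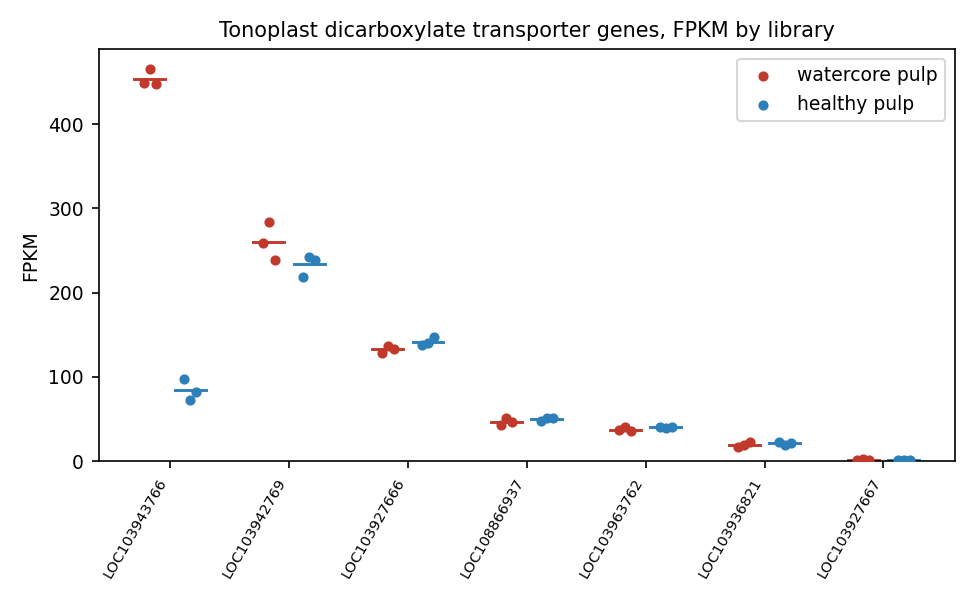
FPKM (linear axis) of the 7 tonoplast dicarboxylate transporter genes, 1 point per library, watercore left of healthy for each gene. LOC103943766 lies between 448 and 466 FPKM in watercore pulp and between 73.0 and 97.2 FPKM in healthy pulp, and the groups of its most abundant relative, LOC103942769, overlap.

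The ALMT family encodes anion channels, several of which carry malate across the vacuolar or the plasma membrane in other plants. It has 23 genes here, 15 of them at 0 in every library, and 7 were tested. LOC103930137, named ALMT2-like, was the most abundant, with 38.4, 46.3 and 35.4 FPKM in watercore pulp, against 21.6, 20.9 and 10.7 FPKM in healthy pulp. The groups did not overlap, and the third healthy library was the lowest (log2 fold change 1.16, SE 0.23, adjusted p = 0.00179). Without that library the log2 fold change was 0.90, and the call was lost. A second ALMT2-like gene, LOC103965072, was scarce and rose, with 2.05, 1.34 and 0.712 FPKM in watercore pulp, against 0.210, 0.0691 and 0.0725 FPKM in healthy pulp (log2 fold change 3.48, SE 0.57, adjusted p = 6.3e-04, and 4.18 without the first healthy library). LOC103950687, named ALMT9-like after a vacuolar channel, fell, with 1.83, 2.10 and 1.63 FPKM in watercore pulp, against 4.43, 3.96 and 4.54 FPKM in healthy pulp (log2 fold change -1.23, SE 0.21, adjusted p = 8.4e-04). The groups were apart for each of these genes. Of the 4 not called, LOC103947317 (ALMT4) and LOC103938704 (ALMT9) had adjusted p-values of 0.0156 and 0.0143 at log2 fold changes of 0.34 and 0.59, values that were looked at outside the naming rule. The summed ALMT level was 86.0, 96.9 and 84.6 FPKM in watercore pulp and 67.3, 66.1 and 55.8 FPKM in healthy pulp, of which LOC103930137 held between 41.8 and 47.7% in watercore pulp and between 19.2 and 32.1% in healthy pulp.

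Entry of carbon into the acids runs through PEPC, an enzyme that PEPC kinase phosphorylates and thereby makes less sensitive to inhibition by malate. LOC103954476, a PEPC kinase 2-like gene on scaffold NW_008988152.1 between 77944 and 78613, had 39.7, 35.4 and 33.8 FPKM in watercore pulp, against 136, 123 and 117 FPKM in healthy pulp. All watercore libraries were far below all healthy ones. The means were 36.3 ± 3.02 FPKM in watercore pulp and 125 ± 9.60 FPKM in healthy pulp (SD, n = 3 each), with a log2 fold change of -1.80 (SE 0.09, adjusted p = 7.9e-07). It made up at least 98.0% of the PEPC kinase FPKM in every library. The other tested gene of that name, LOC103931816, stayed at or under 0.412 FPKM, and its protein match names cryptochrome-2 instead.

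The PEPC genes themselves, 9 in number with 7 tested, gave 0 calls, with 1 higher and 2 lower by adjusted p alone. The most abundant, LOC103945414 (PEPC 2), had 45.4, 45.8 and 43.4 FPKM in watercore pulp, against 56.7, 50.7 and 46.2 FPKM in healthy pulp. The groups were apart by a narrow margin (log2 fold change -0.20, SE 0.08, adjusted p = 0.0436). The summed PEPC level was 169, 169 and 164 FPKM in watercore pulp and 177, 182 and 179 FPKM in healthy pulp. The watercore sums were thus only a little below the healthy ones, with no overlap. Their ratio of 0.935 was close to the 0.933 of FPKM summed over all genes. PEP carboxykinase, which runs the route in reverse and is known for turning stored acids into sugar, had 2 genes and 0 calls. LOC103935381 had 90.7, 109 and 80.1 FPKM in watercore pulp, against 105, 126 and 92.0 FPKM in healthy pulp, with overlapping groups (log2 fold change -0.22, SE 0.13, adjusted p = 0.178). The less abundant LOC103947643, picked after its values were seen, was lower by adjusted p alone, also with overlap (log2 fold change -0.30, SE 0.11, adjusted p = 0.0409).

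**Figure D4:**
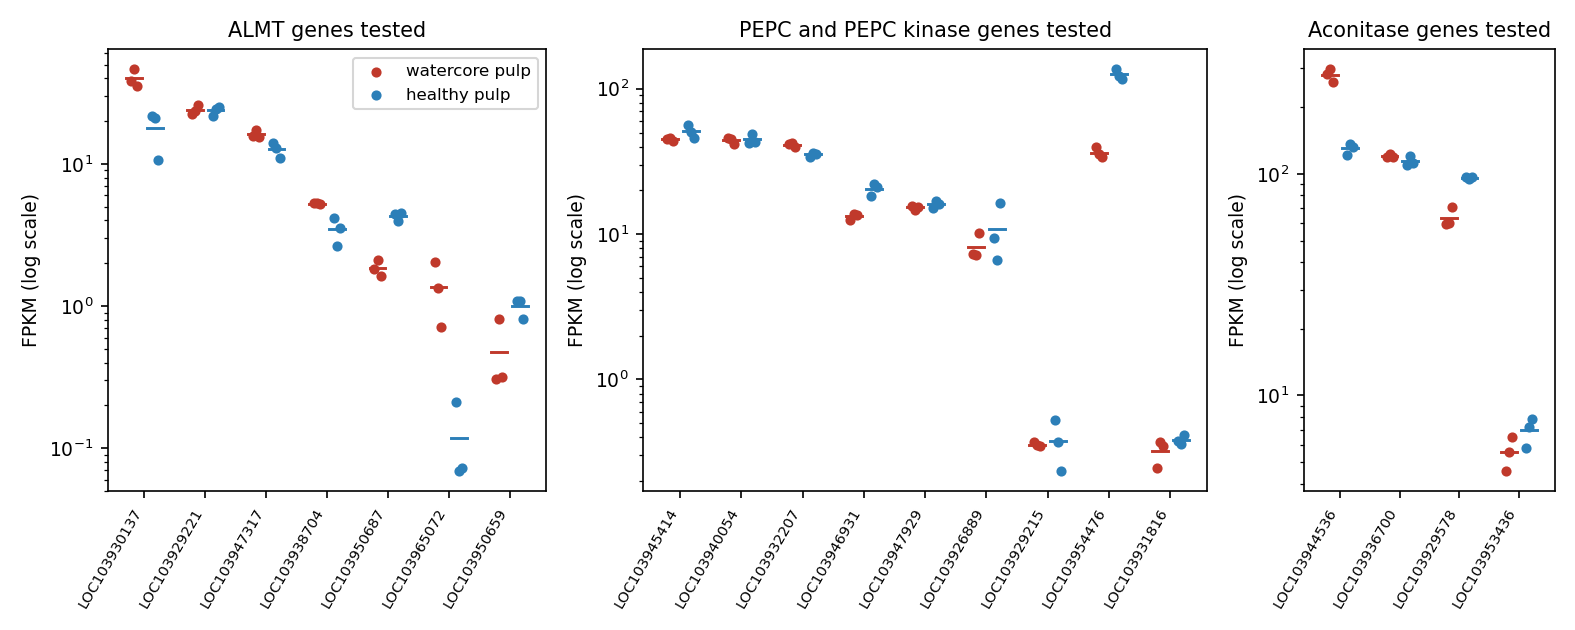
FPKM (log axis) of the tested ALMT genes (left), PEPC and PEPC kinase genes (middle) and aconitase genes (right), 1 point per library, watercore left of healthy for each gene. LOC103954476 lies between 33.8 and 39.7 FPKM in watercore pulp and between 117 and 136 FPKM in healthy pulp, and LOC103944536 between 261 and 297 FPKM in watercore pulp and between 122 and 137 FPKM in healthy pulp.

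Malic enzyme, which decarboxylates malate to pyruvate, had 12 genes, all tested, of which 4 were called higher and 0 lower. The cytosolic and plastid forms use NADP, and 3 of those 6 genes rose. LOC103940187 had 68.7, 73.7 and 67.2 FPKM in watercore pulp, against 34.7, 34.8 and 29.1 FPKM in healthy pulp (log2 fold change 1.08, SE 0.08, adjusted p = 6.5e-06). LOC103943899 had 41.0, 43.2 and 34.4 FPKM in watercore pulp, against 14.9, 14.5 and 13.3 FPKM in healthy pulp (log2 fold change 1.46, SE 0.09, adjusted p = 3.2e-06). LOC103957074 was scarce in healthy pulp, with 5.003, 7.59 and 5.92 FPKM in watercore pulp, against 0.602, 0.774 and 0.405 FPKM in healthy pulp (log2 fold change 3.35, SE 0.26, adjusted p = 8.6e-06). In each of these genes every watercore library stood above every healthy one. The call for LOC103940187 was lost without the third healthy library, where the log2 fold change was 0.997 and the adjusted p 4.9e-06.

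The most abundant gene of the group, LOC103938680, had 233, 238 and 227 FPKM in watercore pulp, against 195, 208 and 213 FPKM in healthy pulp (log2 fold change 0.17, SE 0.06, adjusted p = 0.0237). Its listed length of 3178 bases exceeds its span of 1066 bases on the scaffold, and its domain entry names a pentatricopeptide repeat, so whether it is a malic enzyme is in doubt. Summed over the 6 NADP genes, the level was 427, 442 and 414 FPKM in watercore pulp and 316, 331 and 337 FPKM in healthy pulp. Without LOC103938680 the sums were 193, 204 and 186 FPKM in watercore pulp and 121, 123 and 124 FPKM in healthy pulp. Another of the 6, LOC103944816, has a probable polygalacturonase as its protein match. Without both genes the sums were 185.6, 195.3 and 176.0 FPKM in watercore pulp and 113.0, 115.1 and 115.7 FPKM in healthy pulp.

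The mitochondrial NAD-dependent form is built of 62 kDa and 59 kDa subunits. Of its 6 genes 1 was called, the 59 kDa gene LOC103935560, with 17.9, 10.2 and 8.89 FPKM in watercore pulp, against 2.17, 9.85 and 2.58 FPKM in healthy pulp. The groups overlapped, since the second healthy library lay above the lowest watercore one. Its log2 fold change was 1.33 (SE 0.52, adjusted p = 0.0495), a call that was lost under 9 alternatives, DESeq2 (adjusted p = 0.126) and 5 of the 6 fits with a library left out (adjusted p between 0.0552 and 0.18) among them. Without the second healthy library its log2 fold change was 2.36. The level summed over the NAD genes was 62.9, 57.8 and 63.1 FPKM in watercore pulp and 62.2, 73.1 and 59.1 FPKM in healthy pulp, with overlap.

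Malate dehydrogenase, which interconverts oxaloacetate and malate in the cytosol, mitochondrion, plastid and peroxisome, had most of its tested genes lower in watercore pulp. It has 16 genes, 10 of them tested. Setting aside the NADP form of the plastid, all 7 tested genes had every watercore library below every healthy one, as had 33.8% of all genes tested. Of these 7, 6 had an adjusted p under 0.05, though 0 reached a 2-fold change. Of all genes tested, 30.4% were lower by adjusted p alone. LOC103931821, the most abundant, had 280.3, 273 and 262 FPKM in watercore pulp, against 419.5, 402 and 429 FPKM in healthy pulp, on scaffold NW_008988567.1 between 295302 and 298279. Its groups were well apart, at 272 ± 9.14 FPKM in watercore pulp and 417 ± 13.6 FPKM in healthy pulp (SD, n = 3 each; log2 fold change -0.63, SE 0.05, adjusted p = 1.5e-05). The others ran from -0.32 (LOC103927940, mitochondrial) to -0.86 (LOC103958712, chloroplastic), both picked after their values were seen. One of the 7, LOC103931443, has a pentatricopeptide repeat protein as its match, and without it 5 of 6 had an adjusted p under 0.05. Summed, these forms were at 714, 683 and 667 FPKM in watercore pulp and at 1000, 982 and 992 FPKM in healthy pulp.

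The NADP-dependent malate dehydrogenase of the plastid, which exports reducing power from the chloroplast in leaves, had 3 scarce genes, all of which were called. LOC103937854 had 1.81, 2.18 and 1.18 FPKM in watercore pulp, against 0.387, 0.765 and 0.490 FPKM in healthy pulp (log2 fold change 1.63, SE 0.37, adjusted p = 0.00399). LOC103938371 had 0.886, 0.670 and 0.923 FPKM in watercore pulp, against 0.216, 0.299 and 0.134 FPKM in healthy pulp (log2 fold change 1.89, SE 0.41, adjusted p = 0.00315). LOC103951716 fell, with 3.08, 3.72 and 2.49 FPKM in watercore pulp, against 5.72, 8.11 and 6.34 FPKM in healthy pulp (log2 fold change -1.13, SE 0.20, adjusted p = 0.00115). The groups did not overlap for any of these genes, and their sum was 5.77, 6.57 and 4.59 FPKM in watercore pulp and 6.32, 9.18 and 6.97 FPKM in healthy pulp, with overlap. The call for LOC103951716 was lost without the second healthy library (log2 fold change -0.97) and without the third watercore library (-0.998), each time on the fold change alone.

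**Figure D5:**
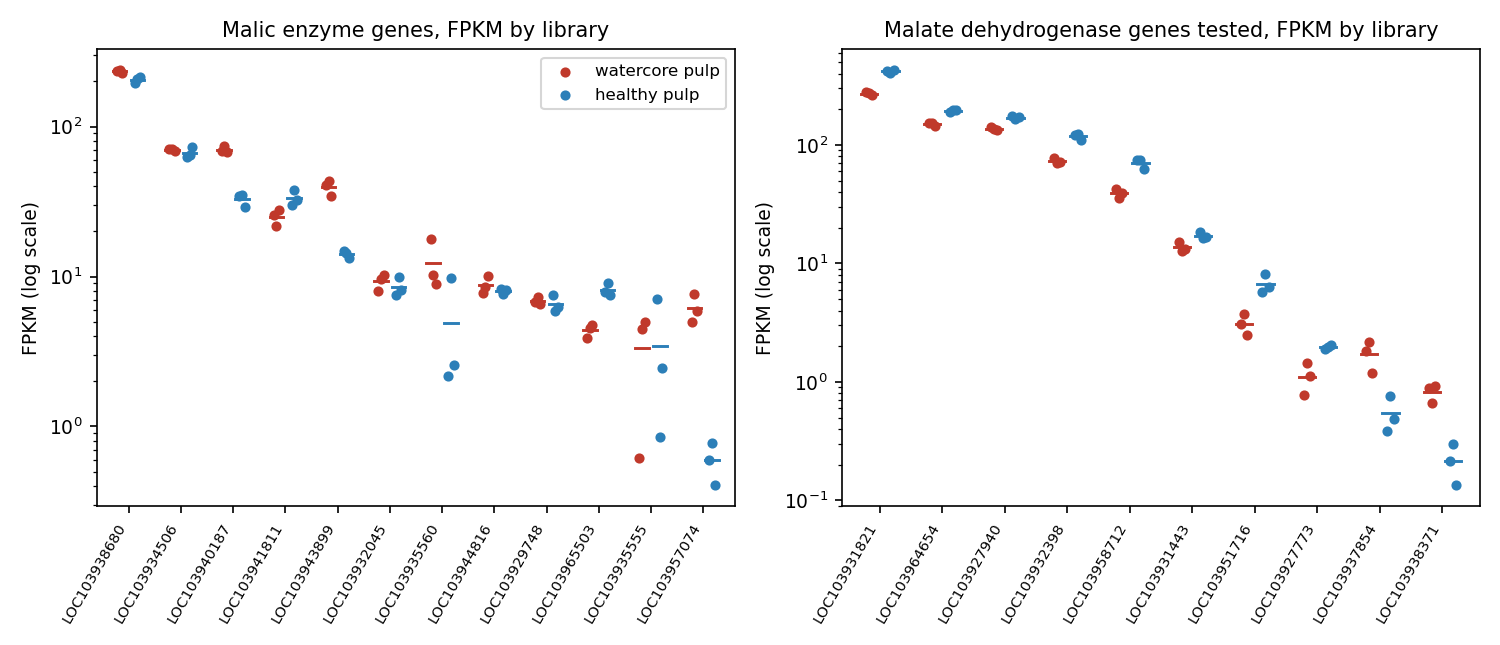
FPKM (log axis) of the 12 malic enzyme genes (left) and the 10 tested malate dehydrogenase genes (right), 1 point per library, watercore left of healthy for each gene. LOC103943899 lies between 34.4 and 43.2 FPKM in watercore pulp and between 13.3 and 14.9 FPKM in healthy pulp, and LOC103931821 between 262 and 280.3 FPKM in watercore pulp and between 402 and 429 FPKM in healthy pulp.

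Among the enzymes that handle citrate, aconitase had 1 of 4 tested genes called higher. LOC103944536, whose product name gives the cytoplasmic form and whose protein match gives a mitochondrial one, had 283, 297 and 261 FPKM in watercore pulp, against 122, 137 and 132 FPKM in healthy pulp. The groups were far apart (log2 fold change 1.09, SE 0.07, adjusted p = 2.7e-06). The gene lies on scaffold NW_008988065.1 between 686982 and 693832. With offsets for gene length its log2 fold change was 0.88 and under the 2-fold minimum. It held 60.5, 61.1 and 57.0% of all aconitase FPKM in watercore pulp and 36.5, 38.1 and 37.9% in healthy pulp. The remaining aconitase genes summed to 184, 189 and 197 FPKM in watercore pulp and to 212, 223 and 217 FPKM in healthy pulp. Among them LOC103929578, picked after its values were seen, had 59.7, 60.3 and 70.7 FPKM in watercore pulp, against 96.7, 94.8 and 96.8 FPKM in healthy pulp (log2 fold change -0.61, SE 0.07, adjusted p = 1.0e-04).

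Citrate synthase, which joins acetyl-CoA and oxaloacetate, had 4 genes and 0 calls. The 2 glyoxysomal genes were lower by adjusted p alone, and the most abundant, LOC103941528, had 238, 239 and 232 FPKM in watercore pulp, against 311, 343 and 366 FPKM in healthy pulp (log2 fold change -0.54, SE 0.07, adjusted p = 1.2e-04). The 2 mitochondrial genes summed to 111, 111 and 106 FPKM in watercore pulp and to 95.6, 97.3 and 101 FPKM in healthy pulp. The watercore sums thus lay below the healthy ones for the glyoxysomal pair and above them for the mitochondrial pair, with no overlap in either. Of the mitochondrial pair only LOC103945808 was higher by adjusted p (log2 fold change 0.26, SE 0.06, adjusted p = 0.00324). The more abundant LOC103954922 was not (log2 fold change 0.06, SE 0.05, adjusted p = 0.343). ATP-citrate lyase, which splits citrate in the cytosol to supply acetyl-CoA, had 0 calls among 5 tested genes. By adjusted p alone 1 was higher and 2 were lower, beside 32.3% and 30.4% of all genes tested. The most abundant, LOC103961236, had 96.8, 97.9 and 86.0 FPKM in watercore pulp, against 101, 95.6 and 101 FPKM in healthy pulp (log2 fold change -0.10, SE 0.06, adjusted p = 0.225).

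Isocitrate dehydrogenase had 17 genes, 11 of them tested, of which 1 was called higher and 1 lower, both scarce. The most abundant gene, LOC103959913 of the NADP form, had 138.0, 137 and 139 FPKM in watercore pulp, against 151, 164 and 161 FPKM in healthy pulp (log2 fold change -0.21, SE 0.05, adjusted p = 0.00644). LOC103953293 of the same form, picked after its values were seen, was higher (log2 fold change 0.575, SE 0.06, adjusted p = 4.7e-05). By adjusted p alone 1 of the 7 tested NADP genes was higher and 3 were lower. The NADP form summed to 369, 371 and 372 FPKM in watercore pulp and to 360, 383 and 390 FPKM in healthy pulp, with overlap. For the NAD form, the one that works in the citric acid cycle, the sum was 198, 188 and 193 FPKM in watercore pulp and 270.3, 253 and 267 FPKM in healthy pulp, with 3 of its 4 tested genes lower by adjusted p alone. The fourth, LOC103929606, a regulatory subunit 3 gene, was called higher, with 1.28, 0.784 and 1.42 FPKM in watercore pulp, against 0.590, 0.167 and 0.480 FPKM in healthy pulp (log2 fold change 1.47, SE 0.46, adjusted p = 0.0194). Its call was lost without the first or the third watercore library (adjusted p = 0.0612 and 0.0722). LOC103958099, an NADP-form gene, had 1, 0 and 1 counts in watercore pulp, against 20, 16 and 67 counts in healthy pulp, so the third healthy library supplied most of them. The healthy counts were 52.0 times the watercore counts per library size (exact 95% interval 14.0 to 435.0, counting error only), and the fit gave a log2 fold change of -5.47 (SE 0.94, adjusted p = 8.5e-04), or -4.51 without the third healthy library. The gene overlaps LOC103958100, of the same name and strand, by 1271 bases, and how reads shared by both were counted is not given.

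In the lower span of the cycle most tested genes differed by less than 2-fold. LOC103930021 encodes the first component of 2-oxoglutarate dehydrogenase and had 62.2, 61.8 and 62.9 FPKM in watercore pulp, against 70.2, 71.9 and 73.9 FPKM in healthy pulp. The groups did not overlap, and the difference was small (log2 fold change -0.22, SE 0.05, adjusted p = 0.00377). Succinate dehydrogenase, the membrane complex that also feeds the respiratory chain, had 19 genes with 17 tested, of which 2 were called lower and 0 higher. Its iron-sulfur subunit gene LOC103932925 was the most abundant organic acid gene of all, with 483, 446 and 424 FPKM in watercore pulp, against 458, 452 and 419 FPKM in healthy pulp, and its groups overlapped throughout (log2 fold change 0.01, SE 0.06, adjusted p = 0.866). The next in abundance, LOC103947548, a subunit 3-1 gene picked after its values were seen, was lower (log2 fold change -0.35, SE 0.05, adjusted p = 4.3e-04). By adjusted p alone 7 of the 17 tested genes were lower and 2 higher, beside 30.4% and 32.3% of all genes tested. The called genes were minor ones. LOC103951102, an assembly factor 1 gene, had 8.49, 5.25 and 8.37 FPKM in watercore pulp, against 15.9, 16.1 and 14.1 FPKM in healthy pulp (log2 fold change -1.07, SE 0.20, adjusted p = 0.00135), and was no longer called without the second watercore library (log2 fold change -0.86) or with offsets for gene length (-0.87). LOC103967100, a subunit 6 gene, had 2.18, 1.35 and 1.33 FPKM in watercore pulp, against 5.76, 4.87 and 2.50 FPKM in healthy pulp (log2 fold change -1.44, SE 0.38, adjusted p = 0.00904). In both genes all watercore libraries were below all healthy ones. LOC103941522, a flavoprotein subunit picked after its values were seen, was the succinate dehydrogenase gene with the highest fold change, at 168, 175 and 177 FPKM in watercore pulp, against 104, 111 and 95.6 FPKM in healthy pulp (log2 fold change 0.74, SE 0.06, adjusted p = 1.7e-05).

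Fumarase, which hydrates fumarate to malate, had 2 genes that differed in opposite directions. LOC103938333, with 96.6, 95.8 and 96.1% of the FPKM of both in watercore pulp and 98.9, 99.4 and 99.1% in healthy pulp, had 78.6, 76.6 and 76.7 FPKM in watercore pulp, against 100.3, 106 and 99.5 FPKM in healthy pulp (log2 fold change -0.41, SE 0.05, adjusted p = 1.4e-04). LOC103967193 was called higher, with 2.74, 3.35 and 3.08 FPKM in watercore pulp, against 1.10, 0.656 and 0.955 FPKM in healthy pulp (log2 fold change 1.74, SE 0.25, adjusted p = 3.4e-04). The groups were apart in both genes, and the sum followed the abundant one.

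The glyoxylate cycle lets seedlings turn fat into malate and sugar. Its isocitrate lyase and malate synthase were hardly detected, whereas the glyoxysomal citrate synthase described above was abundant. Malate synthase had a single count, in a healthy library. The isocitrate lyase genes had too few counts to be tested. LOC103944520 had 11, 9 and 5 counts in watercore pulp, against 1, 0 and 0 counts in healthy pulp, a ratio of 24.8 per library size (exact 95% interval 4.06 to 1020.0). LOC103934238 had 6, 3 and 8 counts in watercore pulp, against 0, 0 and 3 counts in healthy pulp, a ratio of 5.62 (exact 95% interval 1.62 to 29.9). Both intervals cover counting error only and leave out the spread between libraries. Both lie across from syntaxin-132-like genes on the opposite strand, which had at least 408 counts in every library. Whether the counting used strand is not given, so reads of the partners cannot be told apart.

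The isopropylmalate enzymes belong to leucine synthesis and gave 0 calls among 7 tested genes, with a median log2 fold change of 0.39. The small subunit gene of the dehydratase, LOC103927335, had 107, 97.3 and 107 FPKM in watercore pulp, against 71.9, 79.7 and 59.1 FPKM in healthy pulp (log2 fold change 0.55, SE 0.10, adjusted p = 0.00131). LOC103932064, a 2,3-dimethylmalate lyase, had 26.6, 30.5 and 27.6 FPKM in watercore pulp, against 48.6, 50.8 and 57.2 FPKM in healthy pulp, just under the 2-fold minimum (log2 fold change -0.90, SE 0.08, adjusted p = 2.0e-05). The groups were apart in both genes.

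The steps around the acids were read from further lists, by counts, to be set beside 17.6% of all tested genes called higher and 7.54% lower, and 32.3% higher and 30.4% lower by adjusted p alone. Aspartate aminotransferase, which exchanges oxaloacetate with aspartate, had 5 of 7 tested genes called higher and 0 lower, with 6 higher and 0 lower by adjusted p alone, and its 8 genes summed to 641, 619 and 603 FPKM in watercore pulp and to 260.1, 268 and 248 FPKM in healthy pulp. The vacuolar proton pumps, which power acid uptake into the vacuole, had 1 of 44 tested genes called higher and 4 lower, with 30 lower and 2 higher by adjusted p alone. Their 52 genes summed to between 3994 and 4256 FPKM in watercore pulp and between 5643 and 5986 FPKM in healthy pulp. Di- and tricarboxylate carriers other than TDT, taken by product names not limited to the mitochondrion, had 2 of 10 called lower and 0 higher. By adjusted p alone 6 were lower and 0 higher. The GABA shunt, a bypass of the cycle through glutamate, had 3 of 11 called higher and 2 lower, with 4 higher and 3 lower by adjusted p alone. The pyruvate dehydrogenase complex (10 tested), succinyl-CoA ligase (3 tested) and pyruvate kinase (14 tested) had 0 calls, and by adjusted p alone 4, 2 and 4 of them were lower and 0, 0 and 4 higher.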

How the data were processed

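The labels group the 6 RNA-seq libraries as 3 watercore and 3 healthy. The study names Hisat2 as its aligner and Pyrus betulifolia as the species of its reference. Gene identifiers in the table belong to a different annotation with 1672 scaffolds. The build, counter and strand setting behind them were not given in the sources used here. Raw counts per gene and FPKM were deposited by the authors, FPKM being those counts divided by the listed gene length and by 1 constant per library. Where the listed length exceeds the span of the gene (5 of the 147 genes, 1791 of all), FPKM may be too low. The deposited comparison (5 columns of group means, log2 fold change and p-values) was not used. The study calls its replicates biological. The variance between replicates of a group was 4.39 to 11.2 times that of counting noise (chi-square over its degrees of freedom).

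Counts were tested with the quasi-likelihood test of edgeR 4.0.16 in R 4.3.3, with TMM scaling, filterByExpr and Benjamini-Hochberg adjustment. The biological coefficient of variation was 0.143. Tables and plots were made in Python 3.11.15. Ratios of low counts carry exact 95% intervals from the counts pooled within each group, which cover counting error only. Every called gene was named, and the gene with the highest mean FPKM in each role, up to 30 called genes. Other genes were picked after their values were seen. The genes, lists and rules were chosen with earlier results of these data known. Role groups were taken from product names, and 4 tested genes, none of them called, have a protein match or domain of another protein. The alternatives were DESeq2 1.42.0, other scalings and filters, a replicate block, offsets for gene length, limma 3.58.1 on log2(FPKM + 1) and log2(FPKM + 0.1), no minimum fold change and each library left out. Leaving out the 4 doubtful genes was added after seeing the data. Samples sharing a replicate number were not found to be paired. The scripts were tested on simulated data.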

Additional observations from a re-analysis of the deposited data

How the results depend on the processing

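The 12 genes called higher and 6 called lower in watercore pulp became 23 and 36 with no minimum fold change. With limma, 8 were called higher and 3 lower on log2(FPKM + 1), 8 and 2 where the mean FPKM was also at least 1, and 18 and 6 on log2(FPKM + 0.1). These fits held 124, 93 and 124 of the 147 genes. Over all genes they called 2313 higher and 824 lower of 30138, 2123 and 817 of 18339, and 4826 and 1665 of 30138. With 1 library left out, 9 to 12 were called higher and 5 to 6 lower. Over all genes those fits called 3736 to 4060 higher and 1530 to 1655 lower, beside 3730 and 1599 in the main test. The replicate block gave 12 and 6, and the deviations of same-numbered libraries correlated at 0.0369, 0.00271 and -0.00256, so the numbers are not taken to pair the samples. A filter of 10 counts in every library gave 8 higher and 5 lower, no filter 14 and 6, offsets for gene length 10 and 5, and leaving out the 4 genes of doubtful annotation, chosen after seeing the data, 12 and 6. DESeq2 also gave 12 and 6, with LOC103935560 lost and the isocitrate lyase LOC103944520 gained. Over all genes the filter of 10 counts gave 2205 higher and 1047 lower of 18056, and it kept 95 of the 147 genes. No filter gave 4751 and 1892 of 30138, and the length offsets 3572 and 1409 of 21200. Of 279 fold changes of the 18 called genes under alternatives, 251 kept their direction and call, 28 lost the call and 0 reversed. The calls of 8 genes, LOC103943766, LOC103954476, LOC103943899 and LOC103957074 among them, held wherever the gene could be fitted. For the uncalled LOC103932925 the log2 fold change, 0.014, changed sign to -0.006 under upper-quartile scaling, -0.005 with no filter, -0.023 without healthy replicate 3 and -0.037 without watercore replicate 1. The cause of the calls lost with limma was not tested, and 3 libraries per group limit what can be seen in the scarce genes.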

Other observations

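The neighbouring genes LOC103935560 and LOC103935555, both named for the 59 kDa subunit of NAD-dependent malic enzyme and 47242 bases apart, showed opposite patterns among libraries of the same group. LOC103935560 had 17.9, 10.2 and 8.89 FPKM in watercore pulp, against 2.17, 9.85 and 2.58 FPKM in healthy pulp. LOC103935555 had 0.615, 4.50 and 4.95 FPKM in watercore pulp, against 7.03, 0.848 and 2.46 FPKM in healthy pulp. The first watercore and the second healthy library, the highest of their group for the one gene, were the lowest of their group for the other. Their sums were 18.5, 14.7 and 13.8 FPKM in watercore pulp and 9.21, 10.7 and 5.04 FPKM in healthy pulp, with no overlap between the groups.

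The tandem ALMT9-like genes LOC103950687 and LOC103950659, 3548 bases apart, were both lower in every watercore library than in any healthy one. The same held for 33.8% of all genes tested, and the pair was picked after its values were seen. For LOC103950659 the groups all but touched, with 10 counts in the second watercore library and 10 in the third healthy one. LOC103950659 had 0.305, 0.807 and 0.318 FPKM in watercore pulp, against 1.09, 1.08 and 0.809 FPKM in healthy pulp (edgeR, log2 fold change -1.06, SE 0.47, adjusted p = 0.0779), and it was not called. Of the edgeR fits with a library left out, only that without the second watercore library called it (log2 fold change -1.65, adjusted p = 0.0255).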
